A study of Mus musculus with 4 samples.

Results

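The genes described here are the 39 members of the mouse Hox family, taken as every symbol in the single-cell reference that is made of Hox, a cluster letter from a to d and a paralog number, of 32285 genes in all. They were measured at the tenotomy site of the left hindlimb 7 days after burn/tenotomy (BT), an injury of skin and Achilles tendon that leads to heterotopic ossification. The 2 single-cell RNA sequencing (scRNA-seq) libraries held unsorted cells of mice labelled with Hoxa11CreER, a ROSA-LSL-TdTomato reporter and Hif1a fl/fl alleles, which had received tamoxifen at 75 mg/kg on each of 5 days and a washout of 9 days before the injury. One library pooled replicates 1 and 2, and the other was replicate 3. Both libraries share this genotype label, in which the Hoxa11 driver sets the cells that can recombine, and the labels do not mark animals as Cre-positive or Cre-negative. The 2 Visium sections, A1 and B1, came from wild-type C57BL/6 mice of 10 weeks, 7 days after the same injury, and the labels do not say whether they came from separate mice. No group labelled as lacking Cre was analysed here, and the comparisons below set cell types of the same animals against each other.

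Hox genes encode homeodomain transcription factors that give cells of the embryo their position along the body and limb axes. They lie in 4 clusters in which gene order follows the order of expression: low paralog numbers act early and towards the head, high numbers late and towards the tail and the tip of the limb. In the hindlimb, the genes of groups 9 to 13 pattern thigh, shank and foot in turn, and Hoxa11 and Hoxd11 mark the zeugopod, the middle segment that holds the Achilles tendon. Fibroblasts of adult tissue are known to keep much of this code.

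In mm10 (GRCm38), the build of the files, the Hoxa cluster lies on chromosome 6 with 11 genes, and Hoxb spans chr11:96194316-96368254 with 10, Hoxc chr15:102921131-103036856 with 9 and Hoxd chr2:74668225-74765142 with 9. The 250 bases before an annotated start of 4 genes are printed because these genes separate the cell types described below. Hoxa11 and Hoxd11 were counted in mesenchymal cells and not in endothelial cells or keratinocytes. Hoxb8 was counted in endothelial cells and not in mesenchymal cells, and Hoxa7 mostly in keratinocytes and endothelial cells. For Hoxd11 the window belongs to 1 of the 2 starts listed, and it lies within the annotated span of the gene (chr2:74679558-74687016). The Hoxb8 window also lies within the span of its gene (chr11:96279401-96285325), before a start inside that span. The sequences are from RefSeq (GRCm38.p6), 5′ to 3′ on the strand of the gene. Capitals mark motif letters, searched on both strands: the GC box GGGCGG, the CCAAT box, the E box CACGTG, the TATA box TATAAA, the letters TTTATG that caudal-type factors bind, and the letters TGATNNAT that Hox proteins bind together with Pbx.
Hoxa11, chr6:52245811-52246060, minus strand: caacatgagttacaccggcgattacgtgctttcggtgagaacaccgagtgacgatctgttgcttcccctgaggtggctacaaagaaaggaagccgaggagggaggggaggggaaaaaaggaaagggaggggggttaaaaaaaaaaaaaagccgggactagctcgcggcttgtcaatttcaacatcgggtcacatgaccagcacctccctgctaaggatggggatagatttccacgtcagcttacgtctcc
Hoxd11, chr2:74682073-74682322, plus strand: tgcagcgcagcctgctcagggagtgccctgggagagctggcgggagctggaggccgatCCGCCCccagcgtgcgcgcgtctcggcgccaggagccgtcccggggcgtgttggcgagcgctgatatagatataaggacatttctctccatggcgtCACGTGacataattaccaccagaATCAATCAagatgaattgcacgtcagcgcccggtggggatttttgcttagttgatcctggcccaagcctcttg
Hoxb8, chr11:96281655-96281904, plus strand: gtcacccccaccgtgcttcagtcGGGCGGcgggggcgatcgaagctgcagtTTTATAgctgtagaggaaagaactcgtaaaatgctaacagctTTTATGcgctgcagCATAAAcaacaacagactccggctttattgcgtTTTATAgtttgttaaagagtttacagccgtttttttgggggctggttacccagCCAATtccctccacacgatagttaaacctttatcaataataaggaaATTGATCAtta
Hoxa7, chr6:52218574-52218823, minus strand: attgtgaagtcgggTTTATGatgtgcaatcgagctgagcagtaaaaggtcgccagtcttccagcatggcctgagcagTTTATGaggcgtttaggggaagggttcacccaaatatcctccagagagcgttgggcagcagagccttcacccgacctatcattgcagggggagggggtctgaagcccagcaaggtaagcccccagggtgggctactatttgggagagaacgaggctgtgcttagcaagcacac
The Hoxa11 window held 13 CpG and none of these letters, and it lies on an exon of the antisense gene Hoxa11os. The Hoxd11 window held 20 CpG, a GC box, an E box and the Hox-Pbx letters. The Hoxb8 window held 12 CpG, a GC box, a CCAAT box and the Hox-Pbx letters, and the caudal-type letters and the TATA letters each occurred in it at 2 places. With 7 CpG, the Hoxa7 window held only the caudal-type letters, also at 2 places. No marked stretch overlapped another in these 4 windows. Over the 24 windows of the 22 Hox genes that the table holds, the median was 12.5 CpG, against 6 over all 32851 windows of this length. The GC box stood in 10 of the 24 Hox windows and in 32.7% of all windows, the CCAAT box in 14 and 33.8%, the E box in 4 and 6.02%, the TATA box in 4 and 12.4%, the caudal-type letters in 5 and 10.8%, and the Hox-Pbx letters in 4 and 7.68%. A match is a description of the sequence and not a binding site.

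Of the single-cell libraries, the first had 2303 barcodes and 31536402 UMIs (unique molecular identifiers, which count single transcripts) and the second 1266 barcodes and 23379476 UMIs, and 1 barcode occurred in both. After the filters, 1276 and 795 cells were kept, with a median of 13144 and 17213 UMIs. Each cell was put in a class when at least 3 of the 10 markers of that class were on, 2 more than of any other class. Values are given below as replicates 1 and 2 first and replicate 3 second, as CPM, the UMIs of a gene per 1000000 UMIs of the class. The gate took 346 and 277 mesenchymal cells, 97 and 52 smooth muscle cells and pericytes, 82 and 44 endothelial cells, 69 and 51 keratinocytes, 201 and 113 macrophages, 125 and 39 T or NK cells and 28 and 21 Schwann cells, and left 272 and 159 cells without a class. Mesenchymal cells were the deepest, with medians of 42851 and 44849 UMIs per cell, against 12411 and 14503 in macrophages. The tests compare sums per class and library, so their p-values measure the spread between these 2 libraries only, of which one is itself a pool, and the intervals cover counting error only.

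Hox transcripts were abundant in 4 resident classes of the limb and rare in leukocytes, and Schwann cells lay between them. The 39 genes summed to 265 CPM (95% exact Poisson interval 257 to 274) and 269 CPM in mesenchymal cells, 322 and 328 in smooth muscle cells and pericytes (the mural class), 479 and 508 in endothelial cells, and 258 and 269 in keratinocytes. Macrophages held 11.1 CPM (interval 7.29 to 16.1) and 13.2, T or NK cells 18.2 and 20.4, and Schwann cells 38.2 and 69.3. With clusters in place of the marker gate, the T or NK level fell from a mean of 19.3 to 6.56 CPM. The libraries stood closer to each other than any of the 4 resident classes stood to the leukocytes. Among these 4 resident classes the sum was highest in endothelial cells, and the shares of the clusters differed as well. Hoxc genes gave 48.7% and 47.7% of the Hox UMIs of mesenchymal cells, and the mural class followed with 59.9% and 61.0%. In endothelial cells Hoxb genes gave 49.8% and 48.4%, and Hoxc genes 0.149% and 0.262%. Keratinocytes drew 79.1% and 64.4% from the Hoxa cluster. Paralog groups 9 to 13 made up 78.1% and 77.2% of the Hox UMIs in mesenchymal cells, 61.9% and 57.0% in mural cells, 27.7% and 37.4% in keratinocytes and 21.1% and 22.5% in endothelial cells.

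**Figure D1:**
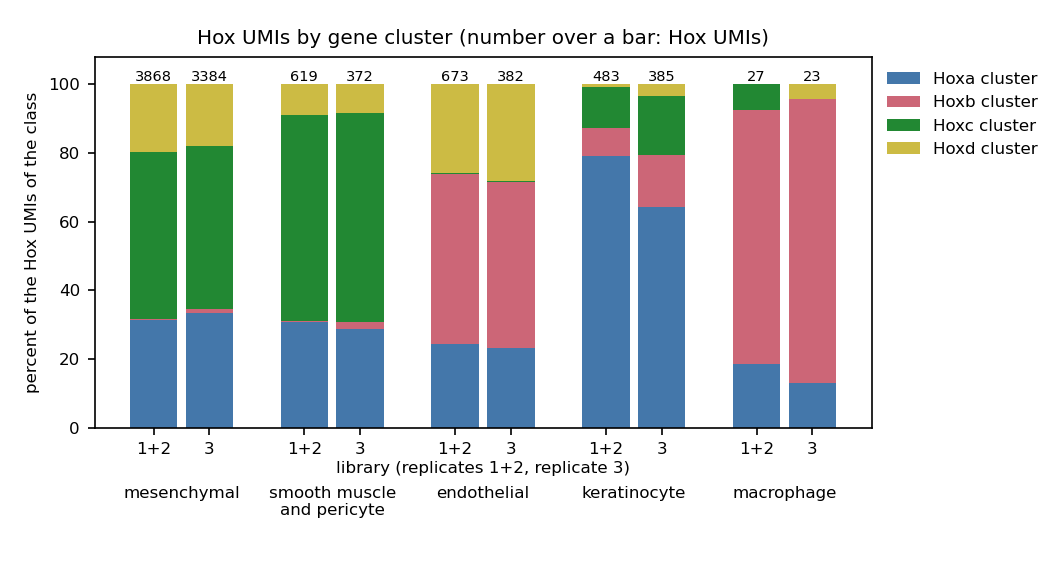
Percent of the Hox UMIs of a class (vertical axis) that fell to each of the 4 Hox clusters, for each library (horizontal axis), with the number of Hox UMIs over each bar. Hoxb genes hold 12 of 3868 and 33 of 3384 Hox UMIs in mesenchymal cells and 49.8% and 48.4% in endothelial cells, and the macrophage bars rest on 27 and 23 UMIs.

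**Figure D2:**
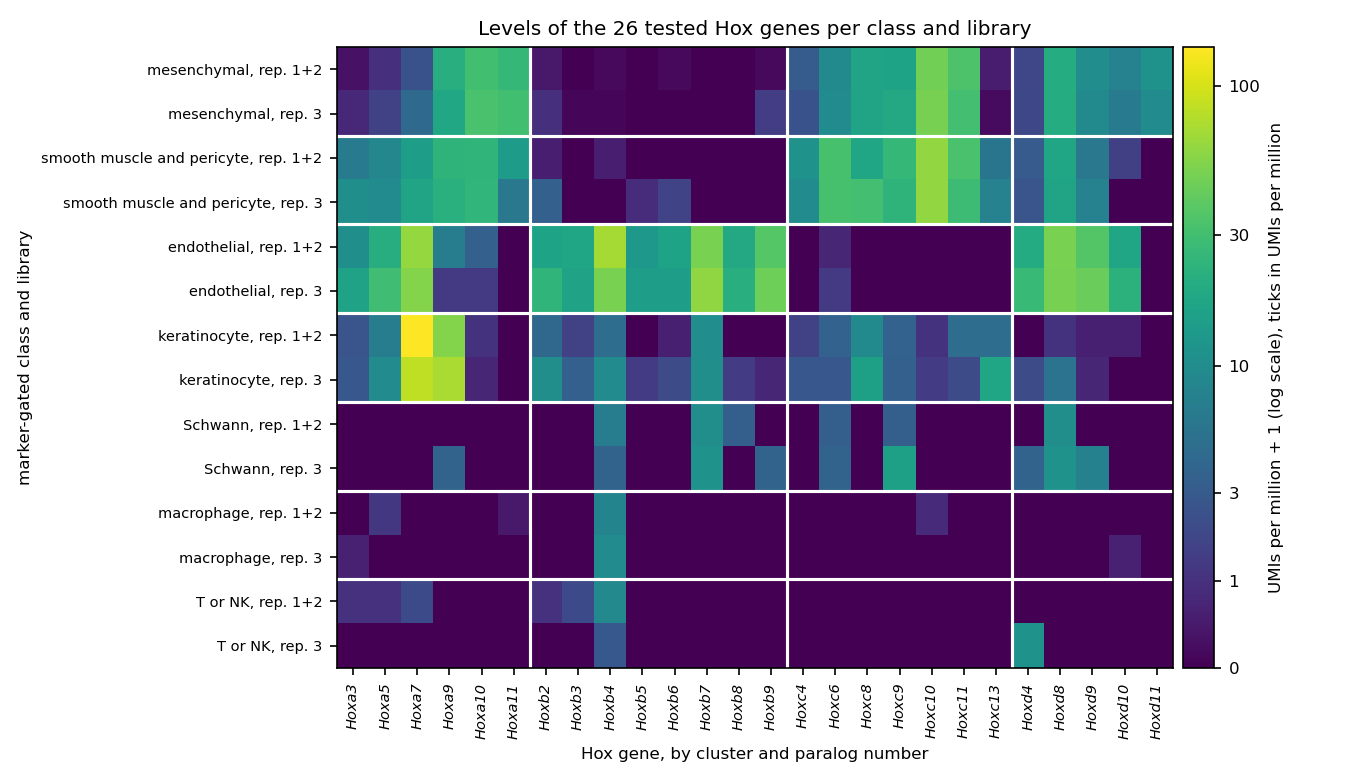
Levels of the 26 tested Hox genes (columns, by cluster and paralog number) in 7 marker-gated classes and both libraries (rows), as CPM on a log color scale after adding 1. Mesenchymal cells and pericytes fill Hoxa9 to Hoxa11 and Hoxc6 to Hoxc11. Endothelial cells fill the Hoxb cluster with Hoxa7 and Hoxd8 to Hoxd10, keratinocytes Hoxa7 and Hoxa9, and macrophages little but Hoxb4.

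Of the 39 genes, 26 passed the filter on low counts and were tested, and each of the 26 passed the threshold of 0.05 on the adjusted p in at least 1 of the 8 contrasts below. The filter keeps a gene that is counted in any class, so this number supports nothing about the family. The 13 genes that were not tested, among them Hoxa6, Hoxa13, Hoxb13, Hoxc12, Hoxd12 and Hoxd13, reached at most 6.66 CPM, for Hoxa6, in any fitted class and library. Among them are genes that pattern the foot: Hoxa13 had 24 and 18 UMIs in mesenchymal cells, Hoxd13 had 1 UMI and 0, and Hoxb13 and Hoxd12 had none in any fitted class.

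Mesenchymal cells were compared with leukocytes, the equal-weight mean of macrophages and T or NK cells on the log scale. The fitted log2 fold changes and p-values use this mean. Ratios, their intervals and the bounds instead divide UMIs pooled over both libraries and over both leukocyte classes. In this contrast 14 of the 26 tested Hox genes were higher in mesenchymal cells and 1, Hoxb4, was lower, where 34.3% of all 12505 tested genes were higher and 23.1% lower and all tested genes had a median of 0.22 on the log2 scale. The median over the 26 genes was 5.06 as fitted, and 3.15 with the genes at 0 UMIs in one group set to their bound. The filter keeps a gene counted in any class, and leukocytes held few Hox UMIs. This count and median therefore support nothing about the family, and the same holds for the counts against leukocytes below.

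Group 11 and group 10 genes, which pattern the shank and the thigh, were all among the genes higher in mesenchymal cells. Hoxa11 is the gene of the Hoxa11CreER driver in the genotype label of these mice. It stood at 25.7 and 30.3 CPM in mesenchymal cells, with 375 and 382 UMIs, against 1 UMI in all leukocytes. The ratio was 154 (95% interval 27.5 to 6085, edgeR adjusted p = 9.37e-08). Hoxc11 stood at 34.0 and 30.8 CPM against 0 UMIs, at least 59.9-fold higher (edgeR adjusted p = 3.75e-09). Hoxd11 stood at 11.6 and 9.76 CPM against 0 UMIs, at least 19.8-fold higher (edgeR adjusted p = 1.54e-05). The call for Hoxd11 ended with DESeq2, another count test, at an adjusted p of 0.291. Hoxa10 was at 29.9 and 32.3 CPM against 0 UMIs, at least 57.1-fold higher (edgeR adjusted p = 1.77e-09), and Hoxc10 at 47.5 and 49.0 CPM against 2 UMIs, a ratio of 133 (36.8 to 1100, edgeR adjusted p = 2.12e-10). Hoxd10 was at 7.89 and 6.43 CPM against 1 UMI, a ratio of 39.8 (7.07 to 1581, edgeR adjusted p = 7.45e-05). For each of these genes both libraries of mesenchymal cells lay above both libraries of each leukocyte class.

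Of the tested genes of groups 4 to 9 in the Hoxa, Hoxc and Hoxd clusters, 8 of 10 were also higher in mesenchymal cells. The share over all tested genes was 34.3%. This set was not among the planned ones and its genes passed the same filter, so the count supports nothing about these groups. No tested Hoxb gene of the same groups was higher, and Hoxb4 was lower. Hoxa9 was at 21.1 and 18.0 CPM, Hoxc9 at 16.6 and 18.4 and Hoxd9 at 10.3 and 9.29, each against 0 UMIs in leukocytes and at least 36.2-fold, 32.1-fold and 18.1-fold higher. Hoxc8 and Hoxd8, which lie beside them, were at 16.8 and 16.8 CPM and at 20.3 and 20.1 CPM, at least 31.0-fold and 37.2-fold higher. Hoxc6 was at 9.60 and 9.69 CPM and Hoxc4 at 3.22 and 2.46 CPM, at least 17.8-fold and 5.28-fold higher. Hoxa7 was at 2.47 and 4.37 CPM against 2 leukocyte UMIs, a ratio of 9.25 (2.49 to 77.5). The edgeR adjusted p of these 8 genes lay between 2.19e-08 and 0.0073.

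The Hoxb cluster was nearly silent in mesenchymal cells, with 12 and 33 UMIs among 3868 and 3384 Hox UMIs. Hoxb5, Hoxb7 and Hoxb8 had no UMI in either library. Hoxb9 had 2 and 18 UMIs, the latter in cells of which none held more than 4, and 17 of these 18 UMIs came from mesenchymal cells of replicate 3 that fell in no subset. Hoxb4, a gene of blood-forming progenitors, ran the other way: mesenchymal cells held 2 UMIs and 1, macrophages 8.19 and 9.72 CPM and T or NK cells 9.08 and 2.92, a ratio of 77.1 in favour of leukocytes (24.8 to 387, edgeR adjusted p = 1.95e-07). Hoxb4 alone accounted for 20 of the 27 Hox UMIs of macrophages in one library and 17 of 23 in the other. T or NK cells of replicate 3 held only 7 Hox UMIs, 6 of them from the Hoxd cluster, and Schwann cells, for which no contrast was made, held 11 and 18 Hox UMIs. Hoxa3 (0.274 and 0.714 CPM), Hoxa5 (0.960 and 1.67), Hoxd4 (1.85 and 1.91), Hoxb2 (0.412 and 0.953), Hoxb3 (0 and 0.0794), Hoxb6 (0.137 and 0) and Hoxc13 (0.480 and 0.159) were low in mesenchymal cells and did not pass the test against leukocytes.

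**Figure D3:**
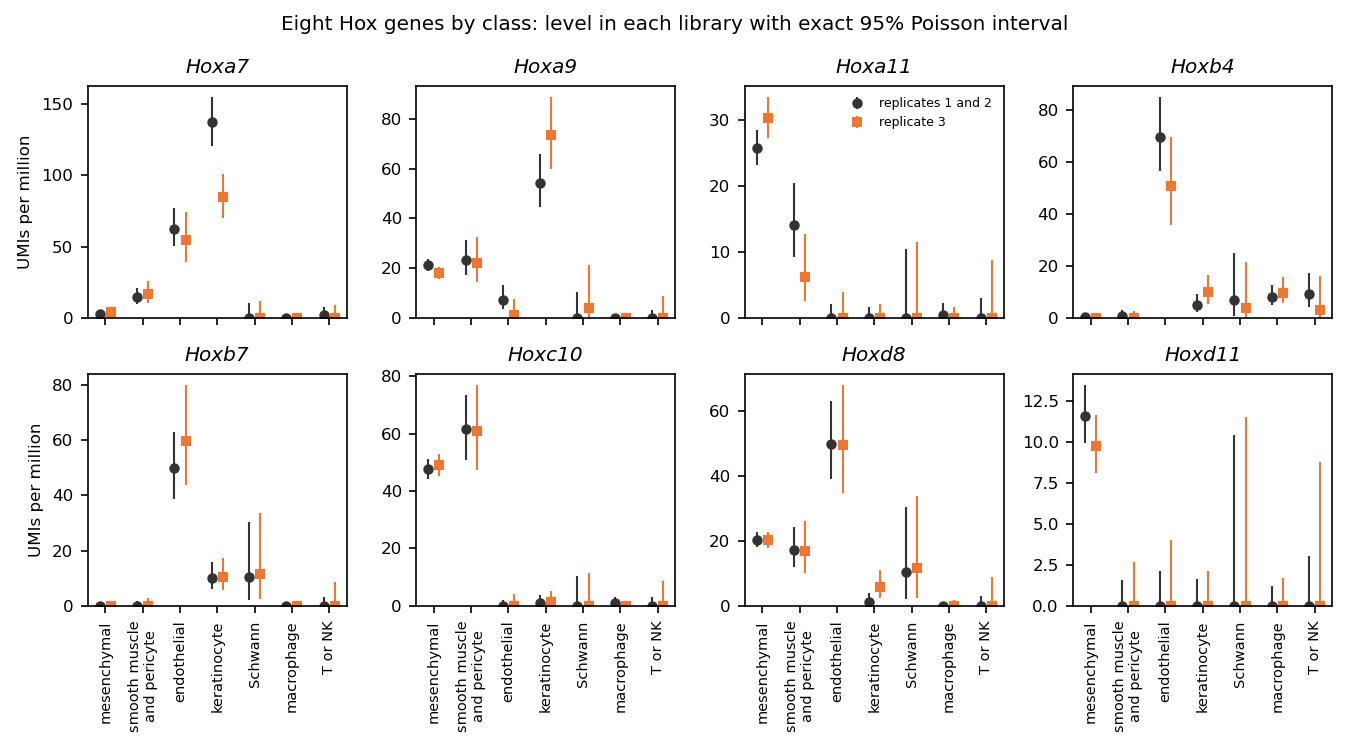
Levels of Hoxa7, Hoxa9, Hoxa11, Hoxb4, Hoxb7, Hoxc10, Hoxd8 and Hoxd11 in CPM (vertical axes, each with its own scale) by class, with circles for replicates 1 and 2, squares for replicate 3 and exact 95% Poisson intervals. Hoxa11 is at 25.7 and 30.3 in mesenchymal cells, 14.1 and 6.17 in mural cells and 0 in endothelial cells and keratinocytes, and Hoxd11 is above 0 in mesenchymal cells only among these classes.

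Smooth muscle cells and pericytes, the mural cells of vessels, carried a code close to that of mesenchymal cells but shifted to lower paralog numbers. Against leukocytes 15 of the 26 genes were higher and Hoxb4 was lower, where 26.9% of all genes were higher and 19.9% lower. The call of Hoxb4 ended with clusters in place of the gate. Against mesenchymal cells, a contrast added after the values were seen, 6 were higher and 3 lower, where 13.9% and 18.9% of all genes passed in these directions. This count of 9 fell to 5 with DESeq2 and to 5 with clusters in place of the gate, where the calls of Hoxa11 and Hoxc4 ended and Hoxd11 and Hoxc13 could not be fitted.

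The genes that were lower in mural than in mesenchymal cells belonged to groups 10 and 11. Hoxd11 had no UMI in mural cells, at least 10.9-fold lower (edgeR adjusted p = 0.000161, 0.451 with DESeq2). Hoxd10 had 3 UMIs and 0, a ratio of 7.34 (2.48 to 35.9, edgeR adjusted p = 0.00402). Hoxa11 stood at 14.1 and 6.17 CPM, 2.50-fold lower (1.78 to 3.64, edgeR adjusted p = 0.00189, 0.466 with DESeq2). Hoxc6 was higher, at 31.8 and 31.7 CPM, 3.29-fold (2.58 to 4.17, edgeR adjusted p = 0.000274). Hoxc4 was at 11.5 and 9.70 CPM, 3.76-fold higher (edgeR adjusted p = 0.0205, 0.221 with DESeq2). Hoxa3, Hoxa5 and Hoxa7 were at 6.77 and 10.6, 8.86 and 9.70, and 14.6 and 16.7 CPM, 17.1-fold, 7.12-fold and 4.60-fold higher (edgeR adjusted p = 8.57e-05, 0.000691 and 0.00193). Hoxc13 also passed, at 5.73 and 7.93 CPM, but 5 of its 11 UMIs in one library and 8 of its 9 in the other came from 1 cell, and DESeq2 gave an adjusted p of 0.0681.

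Hoxc8 to Hoxc11, with Hoxa9, Hoxa10, Hoxd8 and Hoxd9, did not pass the test between mural and mesenchymal cells. Hoxc10 stood at 61.5 and 60.8 CPM (log2 fold change 0.11, SE 0.200), Hoxc11 at 32.3 and 28.2 (-0.33, SE 0.244), Hoxc9 at 25.5 and 23.8 (0.28, SE 0.275) and Hoxc8 at 17.2 and 30.9 (0.21, SE 0.289). Hoxa9 stood at 23.4 and 22.0 CPM, Hoxa10 at 24.0 and 24.7, Hoxd8 at 17.2 and 16.7 and Hoxd9 at 6.25 and 7.93. Mesenchymal markers were present in this class: the 10 markers summed to 1709 and 1611 CPM, against 6362 and 6976 in mesenchymal cells, with 1 marker at 0. Their part in the likeness was not tested.

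Endothelial cells carried a different code. All 17 genes called against leukocytes were higher and none was lower, where 22% of all genes were higher and 16.3% lower, and no Hox gene was lower at an unadjusted p under 0.05 or with DESeq2. The 17 were the 8 tested Hoxb genes, Hoxa3, Hoxa5, Hoxa7, Hoxa9, Hoxa10, Hoxd4, Hoxd8, Hoxd9 and Hoxd10, and the calls of Hoxa9 and Hoxa10 ended with clusters in place of the gate. Hoxb4, which leukocytes also held, was 7.41-fold higher in endothelial cells than in leukocytes (5.28 to 10.6, edgeR adjusted p = 1.33e-06). Against mesenchymal cells, again a contrast added after the values were seen, 15 Hox genes were higher and 10 lower, where 17.6% and 23.3% of all genes passed in these directions and the median of all genes was -0.11 on the log2 scale. Only Hoxc13 of the 26 was not called.

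The 8 tested Hoxb genes were all higher in endothelial than in mesenchymal cells. Hoxb4 stood at 69.7 and 50.6 CPM against 3 UMIs in all mesenchymal cells, a ratio of 571 (191 to 2804, edgeR adjusted p = 1.29e-11). Hoxb7 stood at 49.8 and 59.9 CPM against 0 UMIs, at least 483-fold higher (edgeR adjusted p = 7.82e-10). Hoxb9 stood at 37.0 and 45.3 CPM, a ratio of 54.2 (33.0 to 93.1, edgeR adjusted p = 1.10e-06). The rest of the cluster rose with them at lower levels. Hoxb2 was at 16.4 and 24.0 CPM, Hoxb3 at 17.1 and 16.0, Hoxb5 at 12.8 and 14.6, Hoxb6 at 16.4 and 14.6 and Hoxb8 at 18.5 and 21.3, with edgeR adjusted p between 1.79e-06 and 8.37e-06. The calls of Hoxb5 and Hoxb8 ended with DESeq2, at adjusted p of 0.162 and 0.104 here and of 0.328 and 0.238 against leukocytes. Hoxb3 and Hoxb4 overlap in the annotation, as Hoxb4 lies within the span of Hoxb3, so their counts may not be fully separate.

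Outside the Hoxb cluster, endothelial cells were higher in Hoxa3, Hoxa5 and Hoxa7 and in Hoxd4, Hoxd8, Hoxd9 and Hoxd10. Hoxa7 was at 62.6 and 54.6 CPM, 17.9-fold above mesenchymal cells (13.6 to 23.6), Hoxa5 at 20.6 and 29.3 CPM, 18.4-fold (11.7 to 29.1), and Hoxa3 at 10.7 and 16.0 CPM, 26.2-fold (13.05 to 55.2). Hoxd4, Hoxd8, Hoxd9 and Hoxd10 were at 19.9 and 26.6, 49.8 and 49.2, 36.3 and 43.9, and 17.1 and 22.6 CPM, and were 11.9-fold, 2.46-fold, 3.96-fold and 2.64-fold higher. The call of Hoxd8 ended with clusters in place of the gate. The edgeR adjusted p of these 7 genes lay between 2.20e-07 and 0.0469, the last for Hoxd10, whose call ended with DESeq2 (0.229), with clusters in place of the gate and without the lower limit on ribosomal UMIs.

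The zeugopod genes and most of the Hoxc cluster had no UMI in endothelial cells. No UMI of Hoxa11, Hoxd11, Hoxc10, Hoxc11, Hoxc9, Hoxc8 or Hoxc4 was counted in 82 and 44 endothelial cells, at least 20.02-fold, 7.72-fold, 34.7-fold, 23.4-fold, 12.5-fold, 12.1-fold and 2.06-fold lower than in mesenchymal cells. Hoxc6 had 1 UMI in each library. Hoxa10 had 5 UMIs and 1, a ratio of 11.2 (5.10 to 30.5), and Hoxa9 10 and 1, a ratio of 3.85 (2.14 to 7.76). The edgeR adjusted p of these 10 genes lay between 1.09e-08 and 0.0177, and only that of Hoxd11 rose above the threshold with DESeq2, to 0.433. With clusters in place of the gate the calls of Hoxa9 and Hoxc4 ended and Hoxd11 could not be fitted. The neighbours Hoxd10 and Hoxd11 thus passed in opposite directions between endothelial and mesenchymal cells by edgeR, but neither call held with DESeq2 (0.229 and 0.433), and the annotated spans of these genes overlap. Mesenchymal markers summed to 82.6 and 104 CPM in endothelial cells, with 2 of 10 at 0.

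Keratinocytes, the cells of the epidermis, were led by Hoxa7 and Hoxa9. Against leukocytes 12 genes were higher and none lower, where 26.2% of all genes were higher and 22% lower, and no Hox gene was lower at an unadjusted p under 0.05 or with DESeq2. Hoxc11 was among the 12, and its call ended with clusters in place of the gate. Hoxb4 did not pass between keratinocytes and leukocytes (edgeR adjusted p = 0.958). Against mesenchymal cells, in the third contrast added after the values were seen, 9 were higher and 10 lower, where 22.2% and 30% of all genes passed and the median of all genes was -0.15. Hoxa7 stood at 137 and 84.6 CPM, 34.2-fold above mesenchymal cells (27.1 to 43.4, edgeR adjusted p = 1.29e-09), and Hoxa9 at 54.4 and 73.4 CPM, 3.19-fold (2.70 to 3.75, edgeR adjusted p = 5.30e-06). Both libraries of keratinocytes lay above both libraries of every other class for Hoxa7.

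Several further genes were low but higher in keratinocytes than in mesenchymal cells. Hoxb7 was at 10.1 and 10.5 CPM, at least 93.2-fold higher, Hoxb4 at 4.80 and 9.78 CPM, Hoxb2 at 4.27 and 10.5, Hoxb3 at 1.60 and 3.49, Hoxa5 at 6.94 and 9.78 and Hoxa3 at 2.67 and 2.80, with edgeR adjusted p between 9.19e-08 and 0.0136. Hoxc13, a gene of hair and nail, was at 4.80 and 17.5 CPM, a ratio of 31.1 (14.6 to 73.6, edgeR adjusted p = 4.91e-05), and 11 of its 25 UMIs in replicate 3 came from 1 cell. On the other side, Hoxa11 and Hoxd11 had no UMI in keratinocytes, at least 30.7-fold and 11.8-fold lower, Hoxa10 had 3 UMIs over both libraries and Hoxc10 had 4. Hoxc6, Hoxc9, Hoxc11, Hoxd8, Hoxd9 and Hoxd10 were also lower, by ratios between 2.90 and 23.8. DESeq2 gave an adjusted p of 0.356 for Hoxd11. Hoxc8 (9.61 and 15.4 CPM) and Hoxc4 (1.60 and 2.80) did not pass the test between these classes. Mesenchymal markers summed to 11.7 and 29.3 CPM in keratinocytes, with 4 of 10 at 0.

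Within the mesenchymal class, cells were divided by further markers into 156 and 123 tendon-like cells (markers such as Tnmd, Scx and Mkx) and 68 and 64 fascial fibroblast-like cells (Pi16, Dpp4 and Clec3b among the markers), and 112 and 84 cells met no subset rule. The 39 genes summed to 306 and 284 CPM in tendon-like cells and 205 and 202 CPM in fascial cells. Of the 26 tested genes 4 were higher in tendon-like cells and none lower by edgeR, 6 and 1 at an unadjusted p under 0.05, and 3 and 0 with DESeq2, where 6.44% of all 13177 tested genes were higher and 10.5% lower. Neighbours in the Hoxd cluster made up 3 of the 4 calls.

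Hoxd11 stood at 17.4 and 16.8 CPM in tendon-like cells and 1.25 and 2.58 in fascial cells, a log2 fold change of 3.08 (SE 0.505, edgeR adjusted p = 0.000349, 0.578 with DESeq2). Hoxd10 stood at 12.3 and 10.4 CPM against 0.834 and 0.737, a log2 fold change of 3.76 (SE 0.609, edgeR adjusted p = 0.000137). Hoxd9 stood at 14.9 and 12.1 CPM against 4.59 and 3.69, a log2 fold change of 1.71 (SE 0.369, edgeR adjusted p = 0.00227). For all of them both tendon-like sums lay above both fascial sums. Hoxa9 passed as well, at 29.6 and 21.8 CPM against 6.26 and 12.5 (log2 fold change 1.42, SE 0.320, edgeR adjusted p = 0.00351), and its call ended with clusters in place of the gate. Tendon-like cells held 51.5% and 47.3% of the mesenchymal UMIs, but 77.5% and 81.3% of those of Hoxd11, 80% and 76.5% of Hoxd10, 74.7% and 61.5% of Hoxd9 and 72.3% and 57.3% of Hoxa9.

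The remaining zeugopod and stylopod genes did not separate these cells. Hoxa11 stood at 28.9 and 35.0 CPM against 26.7 and 30.2 (log2 fold change 0.16, SE 0.245), Hoxa10 at 33.4 and 36.2 against 32.1 and 28.0 (0.21, SE 0.201) and Hoxc11 at 30.6 and 30.7 against 35.9 and 24.7 (0.03, SE 0.209). Hoxc10 was closest to the threshold, at 55.5 and 45.3 CPM against 27.1 and 38.3 (log2 fold change 0.62, SE 0.213, edgeR adjusted p = 0.0521). Hoxd8, the next gene of the cluster, was at 25.7 and 23.0 CPM against 14.6 and 17.0 (log2 fold change 0.62, SE 0.253, edgeR adjusted p = 0.106). Hoxa7 pointed the other way, at 2.40 and 1.51 CPM against 2.92 and 8.48 (log2 fold change -1.55, SE 0.593, edgeR adjusted p = 0.0984). Only 10 and 6 cells were dermal fibroblast-like, too few for a fit. Their sums held 13 and 18 UMIs of Hoxa9, 14 and 28 of Hoxa10, 4 and 13 of Hoxa11, 0 and 1 of Hoxd11 and 1 and 0 of Hoxd10.

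**Figure D4:**
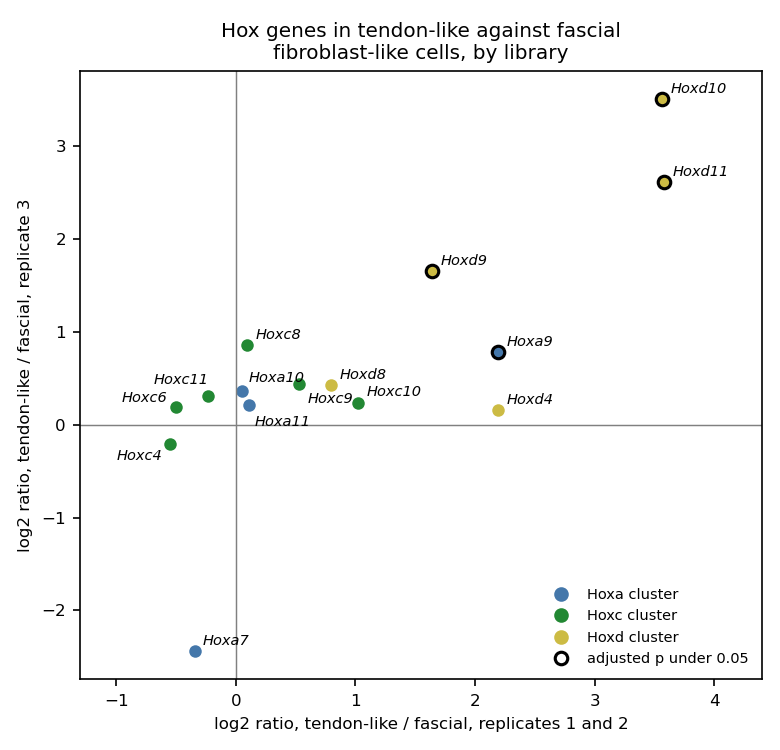
Log2 ratio of tendon-like to fascial fibroblast-like cells in replicates 1 and 2 (horizontal axis) and in replicate 3 (vertical axis) for the 15 tested Hox genes with at least 20 UMIs over these sums, colored by cluster, with a black ring where the adjusted p is under 0.05. Hoxd10, Hoxd11, Hoxd9 and Hoxa9 lie above 0 on both axes, with ratios of 3.56 and 3.51 for Hoxd10, and Hoxa11 lies near 0 on both, at 0.11 and 0.21.

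Counted per cell, Hox transcripts were widespread in mesenchymal, mural and endothelial cells and in keratinocytes. Schwann cells were not among these, as their median cell held UMIs of 0 Hox genes without thinning in both libraries. With each cell thinned to 5000 UMIs, so that depth was equal, at least 1 Hox UMI was found in 70.3% of mesenchymal cells (95% Wilson interval 65.2 to 75.0) and 65.1% (59.2 to 70.5), in 82.8% and 79.6% of mural cells, in 89.7% and 85.7% of endothelial cells and in 63.2% and 80.6% of keratinocytes. Macrophages, a type that should hold few Hox transcripts, came from the same suspensions and gave 4.02% (1.96 to 8.07) and 8.74% (4.67 to 15.8). Without thinning the shares were 97.4% and 97.1% in mesenchymal cells and 12.9% and 15.04% in macrophages. Thinning left out 9 and 5 mesenchymal cells and 27 and 10 macrophages that were shallower. Of 69 and 51 keratinocytes, 57 and 36 were deep enough to be kept. Of 82 and 44 endothelial cells 78 and 35 were kept, and of 97 and 52 mural cells 93 and 49.

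The Hoxb and Hoxc clusters differed between these classes in shares of cells as well, while Hoxa and Hoxd transcripts were found in both. At 5000 UMIs a Hoxb transcript was found in 1 of 337 and 7 of 272 mesenchymal cells and in 62.8% and 62.9% of endothelial cells, and a Hoxc transcript in 43.0% and 39.7% of mesenchymal cells and in 0 of 78 and 0 of 35 endothelial cells, which allows shares of cells with a UMI of up to 3.85% and 8.57%. A Hoxa transcript was found in 33.5% and 33.8% of mesenchymal and 41.0% and 34.3% of endothelial cells, and a Hoxd transcript in 22.6% and 18.0% and in 39.7% and 22.9%. Hoxa11 was found in 12.8% (9.61 to 16.7) and 15.1% (11.3 to 19.8) of mesenchymal cells and in 6.45% and 4.08% of mural cells. No Hoxa11 transcript was found at this depth in endothelial cells, keratinocytes or macrophages, the last with 0 of 174 and 0 of 103 cells and upper limits of 1.72% and 2.91%. All of these, the limits included, are shares of cells with a UMI at this depth and not shares that express a gene: without thinning the median mesenchymal cell held UMIs of 6 Hox genes in both libraries.

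**Figure D5:**
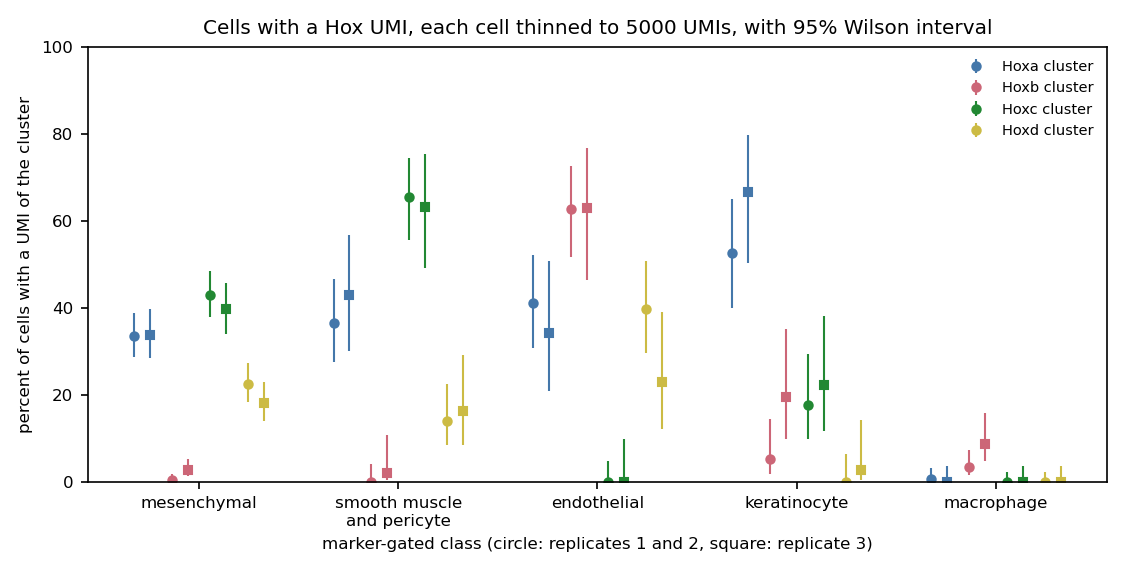
Percent of cells with at least 1 UMI of a Hox cluster (vertical axis) after each cell was thinned to 5000 UMIs, by class (horizontal axis) and cluster (color), with circles for replicates 1 and 2, squares for replicate 3 and 95% Wilson intervals. Endothelial cells with a Hoxb UMI are 62.8% and 62.9% and with a Hoxc UMI 0% in both libraries, while mesenchymal cells are at 43.0% and 39.7% for Hoxc.

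The partners, neighbours and regulators of the Hox genes were counted over lists in the contrast of mesenchymal cells with leukocytes. Regulators of limb type and limb axes are transcription factors that specify hindlimb, front to back and top to bottom. They were higher in mesenchymal cells for all 12 tested of 18, where 34.3% of all genes were higher, and for 11 of the 12 with DESeq2. The filter keeps a gene that is counted in any class, so a gene found mainly in mesenchymal cells enters only where it is high. The count and the median of this list therefore support nothing about the list. En1, which marks the ventral limb, was at 17.2 and 18.97 CPM against 0 UMIs, at least 33.2-fold higher. Tbx15 was at 47.1 and 43.2 CPM, a ratio of 125 (34.6 to 1034), and Tbx3 and Isl1, an early hindlimb gene, were at 13.4 and 11.7 and at 11.2 and 9.13 CPM against 0 UMIs, at least 23.2-fold and 18.8-fold higher. The call of Isl1 was the one that ended with DESeq2, at an adjusted p of 0.297. The edgeR adjusted p of these 4 genes lay between 3.06e-10 and 2.04e-05, and the median over the list was 7.30 as fitted and 6.57 with genes at 0 set to their bound. Of the genes that tell hindlimb from forelimb, named after their values were seen, Pitx1 had 418 and 347 UMIs in mesenchymal cells, Tbx4 had 38 and 38 and the forelimb gene Tbx5 had 11 and 11. Tbx4 and Tbx5 were not tested.

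Pitx1, a hindlimb selector gene, was also higher in tendon-like than in fascial cells. It stood at 28.7 and 27.5 CPM in mesenchymal cells, with 1 UMI and 2 in mural cells and none in endothelial cells or keratinocytes. Within the mesenchyme it stood at 39.4 and 42.9 CPM in tendon-like cells and 12.1 and 11.8 in fascial cells (log2 fold change 1.78, SE 0.256, edgeR adjusted p = 6.13e-05). Isl1, at 17.3 and 15.4 against 3.34 and 2.95 CPM (2.36, SE 0.427), Tbx2 and Shox2 were also higher in tendon-like cells, and Irx5 and Irx3 were lower, so that 4 of 13 tested genes of the list were higher and 2 lower, where 6.44% of all genes were higher and 10.5% lower. The call of Irx3 ended with DESeq2, at an adjusted p of 0.0576.

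Among the cofactors, homeodomain proteins of the Pbx, Meis and Pknox families that bind DNA with Hox proteins, 3 of 6 tested genes were higher in mesenchymal cells than in leukocytes and 1 lower, where 34.3% of all genes were higher and 23.1% lower. With so few genes these counts are not far from the shares over all genes. Meis2 was at 19.3 and 21.6 CPM against 0 UMIs, at least 37.5-fold higher (edgeR adjusted p = 2.01e-08). Meis3 was higher by 0.89 (edgeR adjusted p = 0.0481, 0.174 with DESeq2), and Pknox1 fell by 0.69 on the log2 scale (edgeR adjusted p = 0.00875).

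Of the noncoding RNAs of the clusters, 2 of 4 tested were higher in mesenchymal cells than in leukocytes, where 34.3% of all genes were higher. With 4 genes this count cannot be set apart from that share. Hoxa11os, the antisense transcript of Hoxa11, had 233 and 270 UMIs in mesenchymal cells, 25 and 6 in mural cells, and none in endothelial cells, keratinocytes or leukocytes, at least 34.1-fold higher in mesenchymal cells than in leukocytes (edgeR adjusted p = 8.40e-06, 0.230 with DESeq2). The sources used here do not say whether strand was used in counting, so reads of Hoxa11 and Hoxa11os may not be separate. Hoxb3os was at 7.83 and 17.3 CPM in endothelial cells and 0.137 and 0.397 in mesenchymal cells (log2 fold change 5.06, SE 0.714, edgeR adjusted p = 1.18e-05). Hotairm1, a noncoding RNA of the Hoxa cluster, passed in the fit against leukocytes (log2 fold change 3.27, edgeR adjusted p = 0.0194) where T or NK cells had 0 UMIs, while its level in mesenchymal cells, 4.80 and 8.34 CPM, lay below that in macrophages, 7.78 and 13.2 CPM. In endothelial cells it was at 36.3 and 50.6 CPM and in mural cells at 33.9 and 37.9.

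Subunits and modifiers of the Polycomb and Trithorax systems, which hold Hox genes silent or active through histone marks, were lower in mesenchymal cells for 11 of 12 tested genes (median log2 fold change -1.11), where 23.1% of all genes were lower. The genes with the largest changes were Cbx7, at 0.960 and 1.43 CPM against 13.9 and 9.28 (log2 fold change -3.17, SE 0.447), Jarid2 (-2.39, SE 0.151), Eed (-1.67, SE 0.181) and Kdm6b, an H3K27 demethylase (-1.46, SE 0.156). Against leukocytes, genes of the Polycomb and Trithorax list were also lower in keratinocytes (8 of 12, with 2 higher), endothelial cells (7) and mural cells (7). Of all genes, 22%, 16.3% and 19.9% were lower there. A tie to Hox levels was not tested. In mesenchymal cells against leukocytes, genes of the stress of dissociation moved in both directions, with 5 of 12 higher, 2 lower and 5 not called. Of all genes, 34.3% and 23.1% passed in these directions.

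The wild-type sections gave a second view of the family, by probes instead of 3′ tags. A spot covers several cells, so fewer cells of a type and less RNA per cell cannot be told apart. There were 3555 spots over tissue and 2259744 UMIs in section A1, with a median of 460 UMIs per spot, and 3195 spots and 2308754 UMIs in section B1, with a median of 518. All 39 genes had probes. Hox UMIs numbered 2541 in A1 (1124 CPM) and 2304 in B1 (998 CPM), and 43.3% and 44.1% of spots held at least 1.

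The leading genes differed from those of the single-cell libraries. Hoxc5, which was not tested in single cells and had 11 and 7 UMIs in all mesenchymal cells, gave 633 and 430 UMIs in the sections. Hoxa9 gave 361 and 323, Hoxc4 216 and 206, Hoxa10 195 and 162 and Hoxb6 146 and 109. Hoxa11 gave 46 and 83 UMIs, and Hoxd13, Hoxd12 and Hoxb13, nearly or fully absent from the cells, gave 14 and 27, 4 and 5, and 11 and 10. Hoxa7 gave only 12 and 12 and Hoxb4 7 and 8. Genotype, dissociation and chemistry all differ between the assays and cannot be told apart, so levels were not compared between them.

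Hox transcripts were counted in spots of every tissue set. By sets of spots rich in the markers of a tissue, the 39 genes summed to 910 and 973 CPM in wound mesenchyme (A1 and B1), 1374 and 1055 in skeletal muscle, 1058 and 827 in epidermis, 894 and 868 in cartilage, 1034 and 1066 in bone, 693 and 819 in tendon, 971 and 1424 in adipose tissue and 1164 and 1074 in spots of no set. Spots rich in myeloid markers had the lowest value in both sections, 489 CPM (95% exact Poisson interval 260 to 836, 13 UMIs) and 522 CPM (408 to 657, 72 UMIs). With 1 value per section and set no test was made. The deposited Moran's I scores spatial grouping. It was 0.0074 and 0.0118 for Hoxc5, 0.0028 and 0.0116 for Hoxa9 and 0.0078 and 0.0047 for Hoxc4. Whether these values differ from no grouping was not tested. Hoxb genes were counted in wound mesenchyme spots at 70.0 and 86.7 CPM, and Hoxc genes in epidermal spots at 481 and 357 CPM, where several cell types share a spot.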

How the data were processed

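The authors deposited UMI counts per gene and barcode. Per the file headers and labels, Cell Ranger 5.0.1 made them for 2 scRNA-seq libraries (mm10) and Space Ranger 2.0.1 for 2 Visium sections. A table of Moran's I, a score of spatial grouping, was also deposited. Its values are given for Hoxc5, Hoxa9 and Hoxc4 only, since most Hox genes had few UMIs per section. Cells were kept with at least 200 genes, no more than 20% of UMIs from mitochondrial and at least 5% from ribosomal genes, below the 99th percentile of UMIs, and were given a class where at least 3 markers were on (2 UMIs and 1 per 10000), 2 more than of any other class. Scrublet marked 3 and 3 cells as doublets, which were kept. Counts were summed per class and library (at least 20 cells) and tested across genes with edgeR 4.0.16 (quasi-likelihood, TMM, class plus library as block, Benjamini-Hochberg adjustment, threshold 0.05), with DESeq2 1.42.0 as an alternative. The library block pairs classes of the same animals. A fold against a group at 0 UMIs is a bound from a floor of 3 counts over that group. Spots of at least 100 UMIs entered a tissue set by a Poisson tail under 0.001 of its markers. The 39 genes and the lists were chosen with earlier results of these data known. Values in both libraries are given for genes at 10 CPM or more in a class of both libraries or called in a contrast, which gave 26 genes, and for the 4 genes of a list with the largest called change against leukocytes. Some genes that this rule or the lists hold are not reported here. Scripts were tested on simulated data (Python 3.11.15, scanpy 1.11.5, R 4.3.3).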

Additional observations from a re-analysis of the deposited data

Results flagged for a closer look

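Hox transcripts were also counted outside the classes that entered the comparisons. The 272 and 159 cells that passed the filters but met no class rule held 156 CPM (243 Hox UMIs) in the library of replicates 1 and 2 and 107.9 CPM (103 Hox UMIs) in replicate 3. Barcodes that the filters removed, 1027 and 471 in number, held 142 CPM (860 Hox UMIs) and 145 CPM (573 Hox UMIs). They are listed here because they lie above the 11.1 and 13.2 CPM of macrophages, the class used as the low reference, in data that no comparison used. Which cells they came from was not tested.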

How the results depend on the processing

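Over the 8 contrasts, 117 calls of a Hox gene were made. All 117 kept their side of the threshold without the filter on low counts, with a stricter gate and with marked doublets removed. They also kept it with no replicate block, the fit that leaves out the library term (the reported fits pair the classes within a library). Among the fitted classes, removing doublets changed only the macrophages of replicate 3, from 113 to 112 cells. That setting could therefore hardly move a call. With DESeq2 13 calls were lost, with clusters in place of the gate 11 of the 109 that could be fitted (Hoxd11 and Hoxc13 did not pass the filter there), and without the ribosomal limit 1. The cause was not tested. With either library left out, a fold change was computed without a test, and none of the 117 changed direction. The 9 calls between mural and mesenchymal cells became 5 with DESeq2 and 5 with clusters. With clusters the Hox level moved from 267 to 272 CPM in mesenchymal cells (mean of libraries), from 325 to 329.8 in mural cells and from 19.3 to 6.56 in T or NK cells. The share of mesenchymal cells with a Hox UMI, 67.7% at 5000 UMIs, was 39.8% at 2000 and 97.3% unthinned, as fewer or more UMIs per cell are read. Spots of wound mesenchyme moved from 942 to 1036 CPM with a Poisson tail of 0.01, which takes in more spots. The contrast of tendon-like with dermal cells was not run, with 10 and 6 dermal cells. The shallowest fitted sums were those of Schwann, T or NK and endothelial cells, and at 0 UMIs in endothelial cells the fold of Hoxc4 was bounded at only 2.06.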
